A study of Mus musculus with 15 samples.

Results

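*Cd101* encodes CD101, an inhibitory receptor of the immunoglobulin superfamily, and its transcript was followed through 5 populations sorted from mouse small intestinal lamina propria (LP). It is 1 of 19938 genes that had a probeset of their own on the array, and 1 probeset measured it. It was chosen for its graded level among the dendritic cell (DC) subsets, beside *Itgam* and *Itgae*, which encode the integrin chains CD11b and CD103 on which the subsets were sorted. Its levels in the DC subsets, and their differences from CD64+ macrophages (mϕ), are therefore given as a description, with no test.

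The 15 arrays held RNA of 3 samples for each of CD64+ mϕ, CD103+CD11b+ DCs, CD103-CD11b+ DCs, CD103-CD11b- DCs and CD103+CD11b- DCs. All cells came from the small intestine of healthy WT mice in the steady state, with no treatment and no transgene. The study's methods state that young adult mice of both sexes were used throughout, and give no age or sex by array. Whether animals were pooled for a sort is not given in the sources used here, so p-values measure the spread between these samples only. The labels mark the DC subsets as CD64-, and the mϕ gate was CD45+Ly6C-MHCII+CD64+CD11b+. A value is a log2 signal after quantile normalization, so a step of 1 means a doubling of signal. These were bulk samples of sorted cells, in which fewer positive cells and less RNA per cell cannot be told apart. For the protein the study used flow cytometry, shown for *Rag1*-deficient mice without Cre. It found CD101 on most CD103+CD11b+ DCs, on some CD103-CD11b+ DCs and not on CD103+CD11b- DCs.

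CD101 belongs to the EWI family, named after a glutamate, tryptophan and isoleucine motif in its extracellular immunoglobulin domains. Several members of this family bind tetraspanins, proteins that organise receptors in the plasma membrane. CD101 is found on myeloid cells and on some T cells. In human cells, antibodies against CD101 restrain T cell activation through phospholipase Cγ1 and NFAT, and raise IL-10 release by cutaneous DCs. In mice CD101 also marks mature neutrophils and a suppressive fraction of regulatory T cells.

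*Cd101* lies on the minus strand of chromosome 3. The 250 bases before its annotated start, at chr3:101029554-101029803 (GRCm38.p6, RefSeq), are shown because the myeloid factor PU.1 has its core motif there in 2 places. Capitals mark GAGGAA, which is read here on the opposite strand as TTCCTC. The matching stretch of *Ptgfrn*, the EWI family gene next to it, at chr3:101110167-101110416 on the minus strand, holds none and is shown for contrast. Those of the other EWI family genes, *Igsf8* and *Igsf3*, hold 1 each and are not shown, so the motif is not particular to *Cd101* in its family.
Cd101: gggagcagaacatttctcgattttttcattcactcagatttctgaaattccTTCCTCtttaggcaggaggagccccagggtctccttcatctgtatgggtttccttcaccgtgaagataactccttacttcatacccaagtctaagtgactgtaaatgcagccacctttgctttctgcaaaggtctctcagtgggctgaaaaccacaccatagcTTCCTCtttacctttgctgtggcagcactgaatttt
Ptgfrn: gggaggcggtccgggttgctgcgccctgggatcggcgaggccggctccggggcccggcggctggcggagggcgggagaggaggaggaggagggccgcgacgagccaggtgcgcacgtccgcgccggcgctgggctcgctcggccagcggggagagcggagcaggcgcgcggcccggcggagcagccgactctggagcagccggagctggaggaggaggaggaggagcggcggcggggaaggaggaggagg
The *Cd101* stretch had a GC content of 45.2%, against 79.2% for *Ptgfrn* and a median of 52.4% over all 32851 upstream sequences of this length. GAGGAA was searched on both strands and lay at -199 to -194 and at -36 to -31 from the start. At least 1 match was present in 23.3% of all upstream sequences and at least 2 in 3.54%. A match is a description of letters and no evidence that a factor binds there.

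*Cd101* was high in CD103+CD11b+ DCs, intermediate in CD103-CD11b+ DCs and low in the other 3 populations. In CD103+CD11b+ DCs its log2 signal was 9.42, 9.03 and 9.16 (9.2 ± 0.2, mean ± SD, n = 3 as for all populations). In CD103-CD11b+ DCs it was 7.96, 7.93 and 7.98 (7.96 ± 0.03). In CD103-CD11b- DCs it was 5.25, 5.08 and 5.41 (5.25 ± 0.17), which set this subset far below both CD11b+ subsets. In CD103+CD11b- DCs it was 4.49, 4.57 and 4.76 (4.6 ± 0.14), and in CD64+ mϕ 4.84, 4.57 and 4.57 (4.66 ± 0.15). The lowest pair, CD64+ mϕ and CD103+CD11b- DCs, overlapped, and no other pair of populations did.

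**Figure D1:**
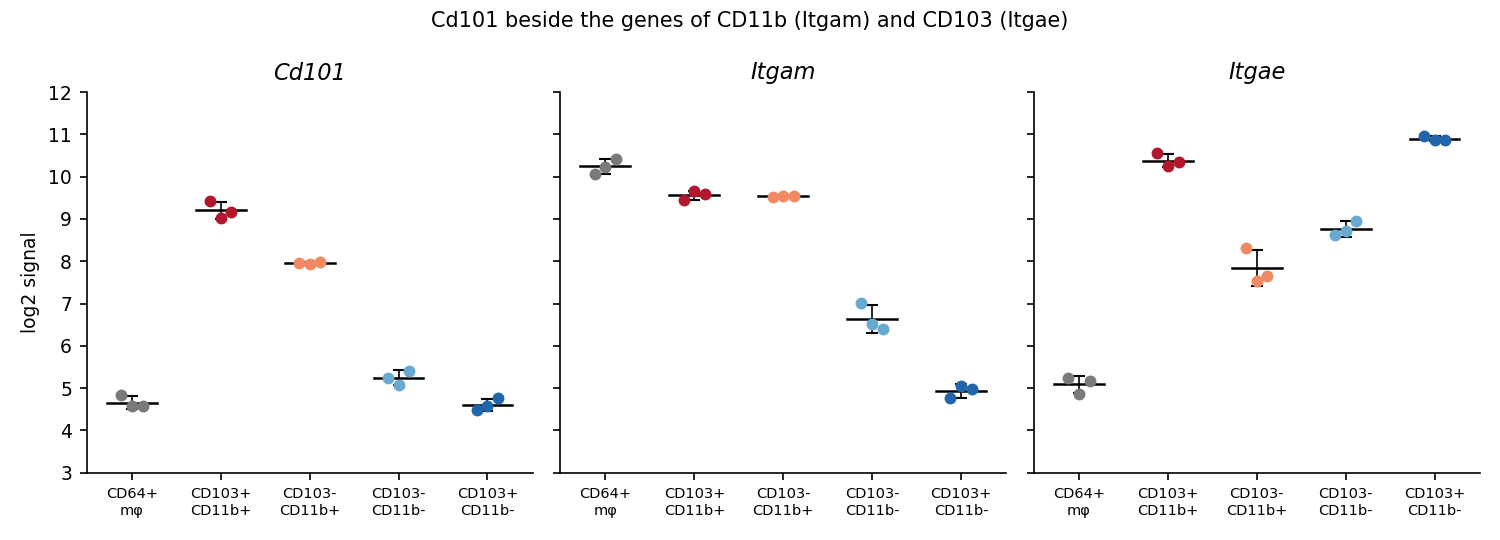
Log2 signal of *Cd101*, *Itgam* and *Itgae* (y axis) in the 5 populations (x axis). Points are the 3 arrays of a population, long bars the mean and error bars the SD. *Cd101* steps down from CD103+CD11b+ DCs (mean 9.2) over CD103-CD11b+ DCs (7.96) to the other populations (4.6 to 5.25), whereas *Itgam* is level in both CD11b+ subsets and highest in CD64+ mϕ.

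The steps between neighbours in this order were unequal. The mean of CD103+CD11b+ DCs exceeded that of CD103-CD11b+ DCs by 1.25 log2 units, a 2.37-fold difference in signal. Its lowest array stood 1.05 above the highest CD103-CD11b+ array. CD103-CD11b+ DCs exceeded CD103-CD11b- DCs by 2.71 (6.54-fold), the widest step. CD103-CD11b- DCs exceeded CD103+CD11b- DCs by 0.64 (1.56-fold), with 0.32 between their nearest arrays. From the first to the last DC subset the difference was 4.6 (24.2-fold). The values near 4.6 lie below the median of all genes on an array, 5.0 to 5.14. Values in that range come without a detection call and are not shown to lie above background. Folds against these populations may therefore be compressed.

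Of all genes, 51 of 19938 (0.256%) had the 4 DC subsets in this same order with no overlap between neighbours. In 22 of them (0.11%), *Cd101* included, every mϕ array also lay below every array of both CD11b+ subsets.

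Neither sort gene followed the same steps. *Itgam* had a log2 signal of 9.44, 9.65 and 9.6 in CD103+CD11b+ DCs and 9.51, 9.55 and 9.54 in CD103-CD11b+ DCs, so that both CD11b+ subsets overlapped. It was at 7.02, 6.51 and 6.4 in CD103-CD11b- DCs and at 4.76, 5.05 and 4.99 in CD103+CD11b- DCs. In CD64+ mϕ it was at 10.07, 10.23 and 10.42, above all DC arrays, where *Cd101* was at its low end. *Itgae* was at 10.55, 10.24 and 10.35 in CD103+CD11b+ DCs and at 10.96, 10.86 and 10.87 in CD103+CD11b- DCs, subsets in which *Cd101* stood at its highest and its lowest. It was at 8.32, 7.54 and 7.66 in CD103-CD11b+ DCs, at 8.61, 8.71 and 8.96 in CD103-CD11b- DCs, and at 5.25, 4.87 and 5.17 in CD64+ mϕ. Higher *Cd101* thus went with CD103 between the CD11b+ subsets, by 1.25, and with its absence between the CD11b- subsets, by -0.64 for CD103+ minus CD103- cells.

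CD64+ mϕ, which carry CD11b as well, were set against each DC subset in the same descriptive way. The mean of *Cd101* in CD64+ mϕ differed from that in CD103+CD11b+ DCs by -4.55 log2 units (23.4-fold lower) and from that in CD103-CD11b+ DCs by -3.3 (9.84-fold lower), with no overlap of arrays in either pair. Against CD103-CD11b- DCs the difference was -0.59, also with no overlap. Against CD103+CD11b- DCs it was 0.05, within the spread of the arrays. This last value turned to -0.01 with re-centred arrays, to -0.01 without replicate 1 of the CD103+CD11b- DCs and to -0.04 without replicate 1 of the mϕ.

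The gene lists that follow were tested with limma, and a gene passed with an adjusted p below 0.01 and a difference above 1 log2 unit. Counts at an unadjusted p under 0.05 alone are given without the share over all genes. Whether such counts exceed that share is not shown. Among all genes, 2.34% were lower in CD64+ mϕ than in CD103+CD11b+ DCs, 2.16% were lower than in CD103-CD11b+ DCs (5.18% changed in either direction), 2.57% were lower than in CD103-CD11b- DCs and 4.04% were higher than in CD103+CD11b- DCs.

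*Fcgr1*, which encodes CD64, had a log2 signal of 8.69 to 9.08 in CD64+ mϕ and 3.69 to 5.02 in the DC subsets. *Flt3*, the receptor for the DC growth factor FLT3 ligand, ran from 5.17 to 5.46 in mϕ and from 9.39 to 10.18 in DCs. *Spi1*, which encodes PU.1, was nearly level, with 10.5 to 11.15 in mϕ and 10.39 to 11.29 in DCs, and passed in no comparison. The negative gates were less clear at the RNA level. Both CD103- subsets kept *Itgae* at 7.54 to 8.96, against 4.87 to 5.25 in mϕ, and CD103-CD11b- DCs had *Itgam* at 6.4 to 7.02. *Xcr1*, a marker of the CD103+CD11b- lineage, was at 8.3 to 8.95 in CD103-CD11b- DCs and at 10.92 to 11.12 in CD103+CD11b- DCs.

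Some defining markers of other cells known to carry CD101 had low signals. The neutrophil genes *S100a8* and *Ly6g* ran from 3.75 to 4.51 and from 2.83 to 3.42 over all 15 arrays. *Foxp3*, the factor of regulatory T cells, ran from 4.47 to 5.04. Of 13 measured neutrophil markers none was higher in CD103+CD11b+ than in CD103-CD11b+ DCs, and *Csf3r*, a receptor that mϕ share, was lower. Of all genes 0.231% were higher and 0.306% lower. The mean of the list over an array was 4.11 to 4.29 in the CD103+CD11b+ subset and 4.33 to 4.73 in the CD103-CD11b+ subset. Other neutrophil genes were higher on single arrays. *Retnlg* stood at 7.14 and *S100a9* at 5.69 in replicate 1 of the CD103-CD11b+ DCs, where *Cd101* was at 7.96. The part of neutrophil markers in the *Cd101* levels was not tested. *Mmp9* and *Csf3r* were higher in CD64+ mϕ than in every DC subset.

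Of 10 T cell, 7 eosinophil and 8 B and plasma cell markers none passed between the CD11b+ subsets, where 0.537% of all genes did. Members of these lists were high in CD103-CD11b- DCs, with *Thy1* at 8.9 to 9.41, *Cd28* at 6.89 to 8.52, *Prg2* at 7.7 to 8.22 and the plasma cell gene *Mzb1* at 9.75 to 11.3. In CD64+ mϕ, against CD103-CD11b- DCs, *Thy1* differed by -2.28, *Prg2* by -1.79, *Mzb1* by -2.09 and *Derl3*, another plasma cell gene, by -1.53, and *Cd3g* by 1.44, and all 5 passed. *Cd3g* also passed as higher in CD64+ mϕ than in CD103-CD11b+ and CD103+CD11b- DCs. In CD103-CD11b+ DCs 1 T cell marker, *Cd28* (1.0), and 3 B and plasma cell markers, *Cd79a*, *Cd79b* and *Mzb1* (1.54 to 1.93), were higher than in CD103+CD11b- DCs. Of all genes 2.02% were higher there. *Cd79b* was higher in CD64+ mϕ than in both CD11b+ subsets, and *Cd79a* and *Cd79b* were higher in CD64+ mϕ than in CD103+CD11b- DCs. The part of these markers in the *Cd101* levels was not tested.

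Other marker lists did move with the CD11b+ comparison. Of 13 mϕ markers, 6 were lower and none higher in CD103+CD11b+ than in CD103-CD11b+ DCs (array means of the list 5.83 to 6.08 and 6.84 to 7.26, against 10.41 to 10.61 in mϕ themselves). Over all genes 0.306% were lower and 0.231% higher in this comparison. The 6 were *Csf1r*, *C1qa*, *C1qb*, *C1qc*, *Apoe* and *Cx3cr1*. From these same arrays the study lists all 6 as unique to the CD103-CD11b+ subset. *C1qa*, a complement gene of mϕ, was at 5.73, 6.18 and 6.53 in CD103+CD11b+ DCs and 9.01, 8.66 and 8.95 in CD103-CD11b+ DCs. Among CD103-CD11b- DCs, *C1qc* stood at 9.57 in replicate 1, where *Cd101* was at 5.25, and at 5.72 in each of the others. The 18 epithelial markers had a median difference of 0.89 between the CD11b+ subsets, with 15 at an unadjusted p under 0.05. Of them 1, *Cdh1* (1.38), passed as higher and none as lower. The study lists *Cdh1* and *Epcam* among the genes of CD103+CD11b+ DCs. Array means of 11 pancreatic acinar genes ran from 5.09 to 8.91 over the arrays, and none of those genes passed in any comparison (0.537% to 7.03% of all genes did). Without the array of each population richest in acinar RNA, a choice made after the values were seen, *Cd101* averaged 4.7 in CD64+ mϕ, 9.29 in CD103+CD11b+, 7.95 in CD103-CD11b+, 5.33 in CD103-CD11b- DCs, with 4.62 for CD103+CD11b- DCs. The part of the mϕ and epithelial markers in the *Cd101* levels was not tested.

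The genes whose pattern was most like *Cd101* were picked by Pearson's r over the 15 arrays, among 2319 genes, *Cd101* included, whose population means ranged over at least 1 log2 unit. These correlations are descriptions, and the 15 points share 5 populations. Of those genes 28 had r above 0.9 and 8 had r below -0.9. *Tnfsf8*, which encodes CD30 ligand, led with r = 0.985. Its log2 signal was 7.28, 7.21 and 7.15 in CD103+CD11b+ DCs and 6.65, 6.21 and 6.56 in CD103-CD11b+ DCs. It lay between 4.63 and 5.35 on all other arrays, so that both CD11b+ subsets stood clear of the rest and of each other.

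*Bin1*, a membrane-bending protein, had r = 0.978 and *Cd209c*, a mouse lectin related to DC-SIGN, had r = 0.968. *Cd209c* was at 8.55, 7.94 and 7.93 in CD103+CD11b+ DCs, then 7.0, 6.73 and 6.92 in CD103-CD11b+ DCs, with 3.92 to 5.49 elsewhere. It followed *Cd101* in the size of the step between the CD11b+ subsets, 1.26 against 1.25. The others were *Ccdc180* (r = 0.953), *Cass4*, a docking protein of adhesion signalling (0.943), *Smad7*, the inhibitor of TGFβ receptor signalling (0.942), *Ramp3*, a partner of calcitonin-type receptors (0.94), *Ankrd44* (0.938), *Ncf1*, the p47phox subunit of the NADPH oxidase (0.938), and *Map3k14*, the kinase NIK of the alternative NF-κB pathway (0.936). *Smad7* was at 7.81, 7.57 and 7.52 in CD103+CD11b+ DCs, then 7.21, 7.23 and 7.49 in CD103-CD11b+ DCs and 6.1 to 6.87 on all other arrays.

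The lead of these 10 rests on differences between populations. Once each population's mean was taken out, their r with *Cd101* ran from -0.42 for *Ccdc180* to 0.47 for *Tnfsf8*. The choice also depended on the measure, since by Spearman's rho none of the 10 remained among the top 10, although the rho of the named genes was 0.75 to 0.882. Over the 12 DC arrays alone 4 of them remained, *Cd209c*, *Ankrd44*, *Tnfsf8* and *Cass4*.

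**Figure D2:**
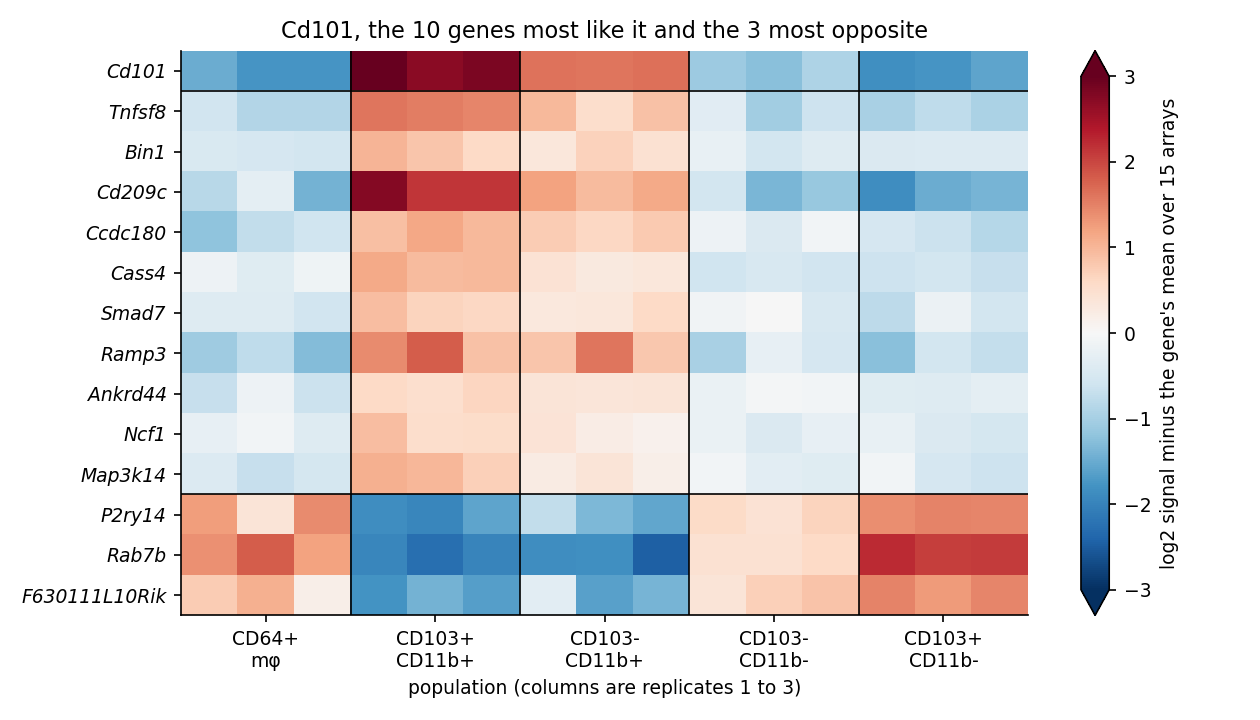
Heat map of the log2 signal minus the gene's mean over 15 arrays (colour, clipped at 3 either way) for *Cd101*, the 10 genes most like it and the 3 most opposite. Columns are replicates 1 to 3 of each population, and horizontal lines part *Cd101*, the like and the opposite genes. Both CD11b+ DC subsets are high for *Cd101* and its 10 companions and low for *P2ry14*, *Rab7b* and *F630111L10Rik*.

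The most opposite genes were *P2ry14*, the receptor for UDP-glucose (r = -0.964), *Rab7b*, a small GTPase of endosomes (r = -0.953), and *F630111L10Rik* (r = -0.94). *Rab7b* was at 4.13, 3.83 and 4.11 in CD103+CD11b+ DCs and 4.23, 4.24 and 3.63 in CD103-CD11b+ DCs, which overlapped. It was at 7.46, 7.91 and 7.3 in CD64+ mϕ, 6.55, 6.55 and 6.69 in CD103-CD11b- DCs and 8.32, 8.16 and 8.18 in CD103+CD11b- DCs.

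The other EWI family genes did not show these steps. *Igsf8*, a partner of the tetraspanins CD9 and CD81, had a log2 signal of 7.29, 6.96 and 6.89 in CD103+CD11b+ DCs, just above 6.39, 6.6 and 6.81 in CD103-CD11b+ DCs. The difference was 0.45 (adjusted p = 0.137; 0.537% of all genes passed in this comparison, in either direction). It was at 6.3 to 6.94 in CD64+ mϕ, 6.43 to 6.56 in CD103-CD11b- DCs and 6.27 to 6.49 in CD103+CD11b- DCs. *Ptgfrn*, an inhibitor of a prostaglandin receptor, was at 4.68, 4.37 and 4.82 in CD103+CD11b+ DCs and 3.83, 3.96 and 4.09 in CD103+CD11b- DCs, a difference of 0.66 (adjusted p = 0.00855) that stayed under the log2 limit. *Igsf3* ran from 4.37 to 4.89 over all arrays. None of the 3 passed in any of the 7 comparisons by limma (0.537% to 7.03% of all genes did) or by the methods' t-test. At an unadjusted p under 0.05 there were at most 2 of them, a count reached between CD103+CD11b+ and CD103+CD11b- DCs as well as between CD64+ mϕ and CD103+CD11b+ DCs.

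**Figure D3:**
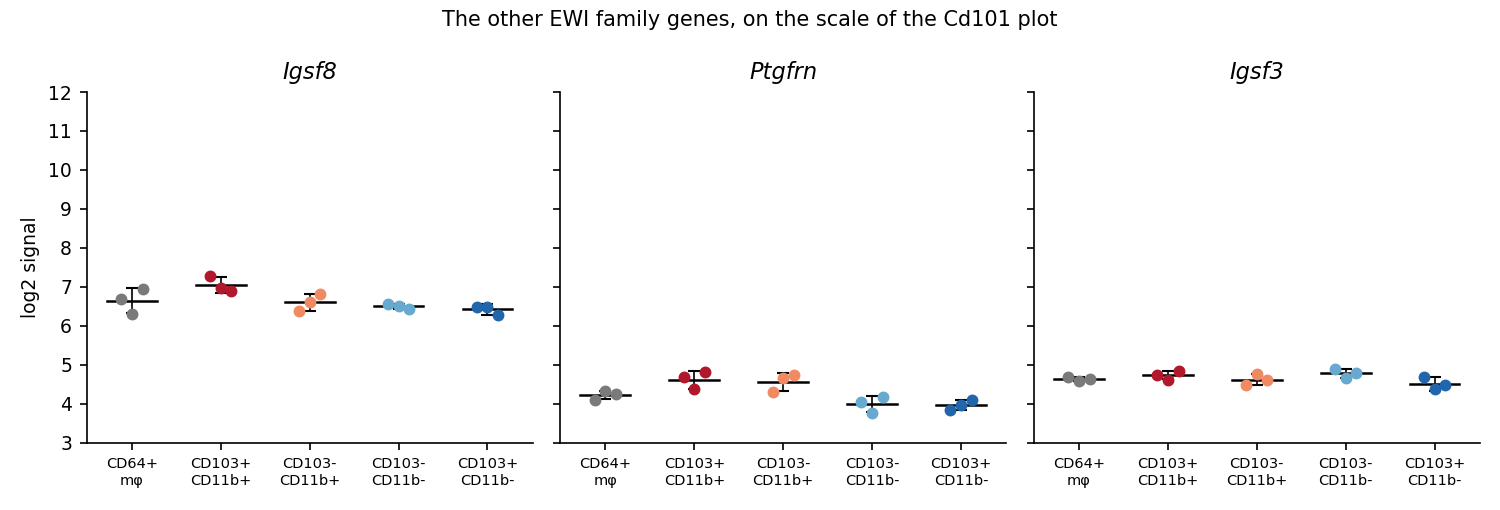
Log2 signal of the other 3 EWI family genes (y axis) in the 5 populations (x axis), drawn to the scale of the *Cd101* plot. Points are the 3 arrays of a population, long bars the mean and error bars the SD. *Igsf8* stays between 6.27 and 7.29 and *Ptgfrn* and *Igsf3* stay below 5.

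The genes next to *Cd101* on chromosome 3 did not show its steps either. In order of position, *Gm12474*, *Man1a2*, *Vtcn1*, *Trim45* and *Ttf2* lie before it, and *Ptgfrn*, *Cd2*, *Igsf3*, *Mab21l3* and *Slc22a15* after it. None of these 10 genes passed in any comparison by limma or by the methods' t-test, with at most 5 at an unadjusted p under 0.05. By limma 0.537% to 7.03% of all genes passed, depending on the comparison. *Mab21l3*, at -0.95 for CD103-CD11b+ minus CD103+CD11b- DCs, passed under 7 of the alternatives, at -1.1 to -1.01, and *Cd2* passed under 1, between CD64+ mϕ and CD103-CD11b- DCs at an adjusted p under 0.05. The median of the 10 was 0.0 between the CD11b+ subsets and 0.03 between CD103+CD11b+ and CD103+CD11b- DCs, where the median over all genes was -0.01 and 0.03. *Vtcn1*, an inhibitory ligand of the B7 family, ran from 3.68 to 4.12 over all arrays. *Cd2*, a T cell adhesion receptor, stood at 7.51 in replicate 2 of the CD103-CD11b- DCs and between 4.21 and 5.65 elsewhere.

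Of 9 tetraspanin genes, none passed between the CD11b+ subsets by limma (0.537% of all genes did) or by the methods' t-test, while 6 had an unadjusted p under 0.05. *Cd81* had the widest range. It was at 12.66, 12.74 and 12.7 in CD64+ mϕ and 8.26, 7.95 and 8.67 in CD103+CD11b+ DCs, a difference of 4.41 (SE 0.2, adjusted p = 6.2e-10; 3.34% of genes were higher in mϕ). It was at 9.63, 8.86 and 9.25 in CD103-CD11b+ DCs, then 9.82, 9.78 and 9.26 in CD103-CD11b- DCs and 11.36, 11.13 and 11.28 in CD103+CD11b- DCs. The subset highest in *Cd101* was thus lowest in *Cd81*, with no overlap with any other population. *Cd63*, a tetraspanin of late endosomes, was higher in CD64+ mϕ than in CD103+CD11b+ DCs by 2.2 (SE 0.35), and *Cd37*, a tetraspanin of leukocytes, by 1.25 (SE 0.2). *Cd82* was lower in CD64+ mϕ than in CD103+CD11b- DCs, with a difference of -1.25 (SE 0.11; 2.99% of genes were lower). *Cd9* ran from 9.3 to 9.51 in CD103+CD11b+ DCs and from 8.77 to 8.91 in CD103-CD11b+ DCs, a difference of 0.54 (adjusted p = 0.0649).

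Of 11 genes on the pathway that CD101 acts through in human cells, none passed in the 3 DC comparisons by limma or by the methods' t-test, with none, 5 and 6 at an unadjusted p under 0.05. By limma 0.537%, 3.28% and 3.32% of all genes passed in them. *Il10* had a log2 signal of 4.25, 4.68 and 4.62 in CD103+CD11b+ DCs and 4.61, 4.77 and 5.03 in CD103-CD11b+ DCs, which overlapped. It was at 4.56, 4.87 and 4.78 in CD103-CD11b- DCs and at 4.22, 4.56 and 4.19 in CD103+CD11b- DCs. In CD64+ mϕ, where *Cd101* was low, *Il10* was at 7.63, 8.46 and 7.78 and higher than in CD103+CD11b+ DCs by 3.44 (SE 0.19, adjusted p = 5.3e-09). *Il10rb*, a chain of the IL-10 receptor, was higher in CD64+ mϕ by 1.79 to 2.01 over the 4 comparisons. *Il10ra*, the other chain, was higher by 1.26 than in CD103-CD11b- DCs (0.96 without the arrays richest in acinar RNA) and by 1.19 than in CD103+CD11b- DCs. *Nfatc1* was higher in CD64+ mϕ than in CD103-CD11b- DCs by 1.18 (adjusted p = 5.0e-05; 3.73% of genes were higher), but by 0.99 without replicate 2 of those DCs. *Plcg1*, which encodes phospholipase Cγ1, was at 6.48, 6.42 and 6.57 in CD103+CD11b+ DCs, then 6.08, 6.45 and 6.51 in CD103-CD11b+ DCs and 6.75, 6.72 and 6.91 in CD103+CD11b- DCs, and did not pass in any comparison.

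Other inhibitory receptors were set beside *Cd101* through a list of 29 measured genes. Against CD103+CD11b- DCs, 17 of the 29 passed as higher and 2 as lower in CD103+CD11b+ DCs (1.95% of all genes were higher and 1.32% lower, 3.28% in all), and 16 as higher and 2 as lower in CD103-CD11b+ DCs (2.02% higher and 1.3% lower, 3.32% in all). The median log2 difference of the list was 1.69 for the CD103+CD11b+ subset and 1.73 for the CD103-CD11b+ subset, against 0.03 and 0.04 over all genes. Both comparisons share the CD103+CD11b- arrays. The study itself listed *Cd33*, *Siglece*, *Sirpa*, *Cd72* and *Lair1* for the CD11b+ subsets from these arrays. Its list for them also holds *Siglecg*, *Cd300a*, *Cd300lf*, *Pilra*, *Pirb*, *Lilrb4*, *Clec4a2*, *Clec4a4*, *Pecam1* and *Milr1*, so most of the higher receptors were already reported. It listed *Btla* and *Clec12a* for CD103+CD11b- DCs. The receptor list was drawn up with earlier results of these data known, so its counts are not independent evidence. *Cd33*, a sialic acid receptor, was at 9.69, 9.38 and 9.42 in CD103+CD11b+ DCs and 4.87, 4.88 and 5.15 in CD103+CD11b- DCs, a difference of 4.53 (SE 0.11, adjusted p = 1.4e-09). *Siglece*, a related receptor, differed by 4.56 (SE 0.18), *Sirpa*, the receptor for CD47, by 3.89 (SE 0.14), *Cd72*, a receptor known from B cells, by 3.02 (SE 0.17), and *Lair1*, the collagen receptor, by 2.5 (SE 0.15). The 2 lower genes were *Btla*, with -2.91 (SE 0.14), and *Clec12a*, with -2.02 (SE 0.18).

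Between the CD11b+ subsets, 2 of the 29 passed, *Siglecf* and *Clec4a4*, named after their values were seen, and both were higher in CD103+CD11b+ DCs (0.231% of all genes were higher, 0.306% lower). *Siglecf* was at 7.32, 7.17 and 7.25 in CD103+CD11b+ DCs and 6.01, 6.13 and 5.59 in CD103-CD11b+ DCs, a difference of 1.34 (SE 0.14, adjusted p = 5.0e-04). The study had already named its product, Siglec-F, among the markers of CD103+CD11b+ DCs. *Clec4a4*, a DC lectin also called DCIR2, was at 7.36, 7.68 and 7.07 in CD103+CD11b+ DCs and 6.54, 5.83 and 6.29 in CD103-CD11b+ DCs, a difference of 1.15 (SE 0.19, adjusted p = 0.00729). This *Clec4a4* call was lost in 7 of the 9 fits that left out a single array, with an adjusted p of 0.0102 to 0.0342, namely without replicate 1 or 2 of the CD103+CD11b+ DCs, replicate 2 or 3 of the CD103-CD11b+ DCs or any 1 of the CD103+CD11b- arrays. It was also lost with array weights (adjusted p = 0.0121), with all 15 arrays in the fit (adjusted p = 0.023) and with only the arrays of both CD11b+ subsets (adjusted p = 0.0246), a choice made after the values were seen. Neither passed without the arrays richest in acinar RNA, with limma's treat against a log2 difference of 1, or by the methods' t-test, and 2 were higher by that test at an unadjusted p under 0.05. The list's median difference was 0.05, against -0.01 over all genes. *Cd33* differed by 0.79 (adjusted p = 0.0028) and *Pilra*, a paired receptor, by 0.93 (adjusted p = 0.0102), so neither passed.

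Against CD64+ mϕ the list divided. In CD64+ mϕ 6 of the 29 were higher and 7 lower than in CD103+CD11b+ DCs, with a median difference of 0.16 (-0.01 over all genes; 5.68% of all genes passed). *Lair1* was higher in mϕ by 2.74 (SE 0.17), *Sirpa* by 1.09 (SE 0.14) and *Cd72* by 1.57 (SE 0.19). *Cd33* (0.17, adjusted p = 0.706) and *Siglece* (0.1, adjusted p = 0.836) did not pass. The lower genes included *Clec4a4*, with -2.8 (SE 0.24), and *Siglecf*, with -1.8 (SE 0.17), and *Btla*, with -1.81 (SE 0.16). For *Cd101* the same difference was -4.55.

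**Figure D4:**
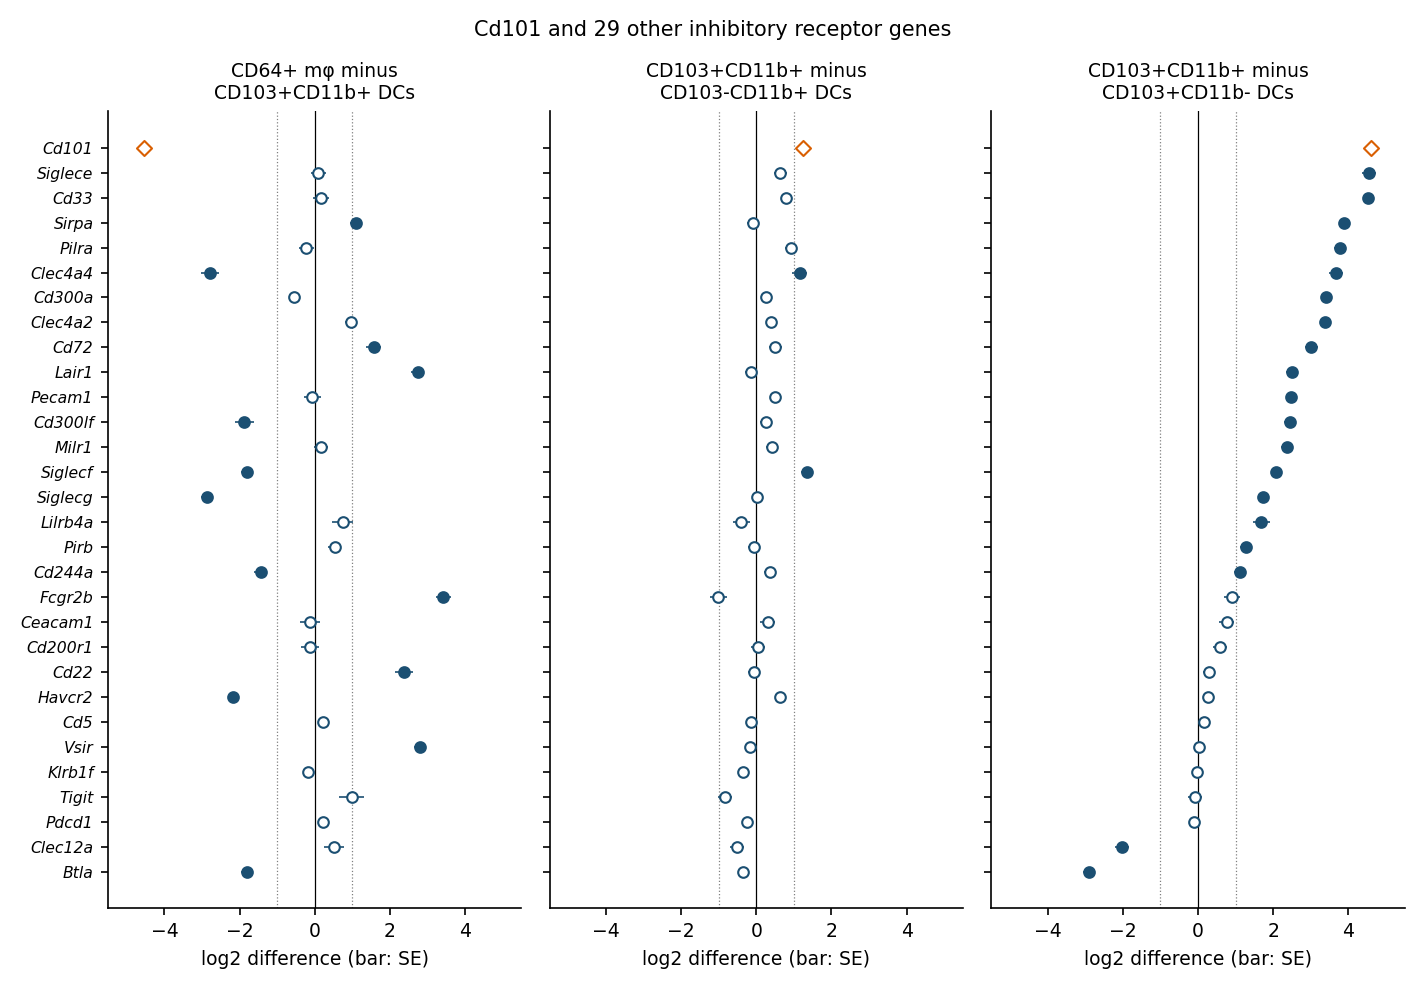
Log2 difference (x axis, with its SE as a bar) of *Cd101* and 29 other inhibitory receptor genes (rows) in 3 comparisons. Filled circles passed, open circles did not, open diamonds mark the *Cd101* values, which were not tested and have no bar, and dotted lines mark a log2 difference of 1 either way. *Cd101* lies at -4.55 in the comparison of CD64+ mϕ with CD103+CD11b+ DCs, where the other receptors spread between -2.88 and 3.42.

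Of the 7 surface marker genes that the study names, beside *Cd101*, as having antibodies for flow cytometry, all 7 were higher in both CD11b+ subsets than in CD103+CD11b- DCs. Of all genes 1.95% were higher in the CD103+CD11b+ subset and 2.02% in the CD103-CD11b+ subset. The study chose them on these arrays, so this count is not independent evidence. Between the CD11b+ subsets only *Trem1*, an activating receptor, passed, as higher in CD103+CD11b+ DCs, where 0.231% of all genes were higher. *Trem1* was at 8.8, 8.2 and 8.35 in CD103+CD11b+ DCs and 7.28, 6.99 and 7.04 in CD103-CD11b+ DCs (difference 1.35, SE 0.16, adjusted p = 0.00151). Without replicate 3 of the CD103-CD11b+ DCs its adjusted p was 0.0105, and without the arrays richest in acinar RNA 0.0296. Like *Cd101* it was lower in CD64+ mϕ, at 5.13, 4.95 and 5.34, than in CD103+CD11b+ DCs (difference -3.31; SE 0.16, adjusted p = 9.4e-10). It parted from *Cd101* in CD103-CD11b- DCs, where *Trem1* was at 6.83, 7.05 and 6.96, overlapping with CD103-CD11b+ DCs. *Cd209a*, which encodes a DC-SIGN relative, was lower in mϕ than in CD103+CD11b+ DCs, with a difference of -3.35, and differed by 0.05 between the CD11b+ subsets (adjusted p = 0.943). *Mgl2*, a galactose-binding lectin, did not pass between mϕ and CD103+CD11b+ DCs (0.5, adjusted p = 0.116).

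Factors whose motifs were searched in the *Cd101* upstream stretch were read beside it. Of 13 such factors none passed between the CD11b+ subsets by limma (4 at an unadjusted p under 0.05), where 0.537% of all genes passed. *Irf4*, a factor of CD11b+ DCs, was at 9.39, 9.5 and 9.14 in CD103+CD11b+ DCs, then 8.79, 8.7 and 8.75 in CD103-CD11b+ DCs, then 8.68, 9.2 and 8.77 in CD103-CD11b- DCs, and lower, at 5.79, 6.35 and 6.01, in CD103+CD11b- DCs. It was higher in CD103+CD11b+ than in CD103+CD11b- DCs by 3.29 (SE 0.14, adjusted p = 6.1e-08). *Irf8*, the factor of the CD103+CD11b- lineage, ran the other way, by -4.05 for CD103+CD11b+ minus CD103+CD11b- DCs (SE 0.17). *Cebpa* and *Cebpb*, factors of myeloid genes, were higher in CD64+ mϕ than in CD103+CD11b+ DCs by 1.15 (SE 0.16) and 1.73 (SE 0.16), and *Smad3*, a transducer of TGFβ signals, by 1.71 (SE 0.17). *Runx1* differed by 0.82 between CD103+CD11b+ and CD103+CD11b- DCs (adjusted p = 5.3e-05), short of the log2 limit. *Runx3* differed there by 0.88 (adjusted p = 1.5e-04), also short of it. Between CD103-CD11b+ and CD103+CD11b- DCs *Runx3* passed as higher, by 1.0 (adjusted p = 5.8e-05), where 2.02% of all genes were higher. The study lists *Runx3* for the CD11b+ subsets from these arrays.

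Besides GAGGAA, the upstream stretch of *Cd101* held 1 match to the RUNX motif TGTGGT, at -49 to -44, found in 14% of all upstream sequences. The C/EBP motif TTNCNNAA had 3 matches, 2 of which overlapped, and at least 1 was present in 36.8% of sequences. There was no match to the IRF motif (GAAA and GAAA with any 2 bases between), the ETS-IRF motif (GGAA, any 2 bases, GAAA), the AP-1 motif TGANTCA, the SMAD motif GTCTAGAC or the RBPJ motif TGGGAA, which were found in 2.98%, 2.3%, 6.75%, 0.167% and 21.6% of sequences. Only the full SMAD motif was searched, and its opening bases GTCT do occur alone in the stretch. Of the 8 genes most like *Cd101* with an upstream sequence, 1, *Ramp3*, held GAGGAA.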

How the data were processed

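The authors hybridized amplified RNA of sorted cells to GeneChip Mouse Gene 1.0 ST arrays and deposited log2 signals from the Robust Multi-array Average (RMA), which corrects background, applies quantile normalization and summarizes each probeset. Differences in total RNA are lost by it. Of 35556 probesets, 21789 had a single gene symbol in the array's annotation, 1621 had more and 12146 were absent from it. Single-symbol probesets were used, the brightest on average for each of 19938 genes.

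limma 3.58.1 in R 4.3.3 was fitted across all genes, on 9 arrays for the 3 DC comparisons and on all 15 for CD64+ mϕ against each DC subset, with Benjamini-Hochberg adjustment. Genes passed with an adjusted p below 0.01 and a difference above 1 log2 unit. Precision is limited by having 3 arrays in each population.

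*Cd101* and the gene lists were chosen with earlier results of these data known. A planned limma test of *Cd101* in CD64+ mϕ is not reported, as it draws on the DC arrays for which *Cd101* was chosen. Named were *Cd101*, *Itgam*, *Itgae*, the EWI family, the 10 genes most like and 3 least like *Cd101*, 5 neighbours on each side, up to 6 passing members of each other list, and *Fcgr1* and *Flt3*. Where a member was needed to describe its list, it was named too. Alternatives covered the probeset, a limit on dim genes, normalization, moderation, array weights, thresholds, the methods' t-test, the arrays in the fit, single arrays left out and the replicate number. Upstream sequences came from RefSeq (GRCm38.p6). Tables and plots used Python 3.11.15, pandas 2.3.3 and matplotlib 3.10.9.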

Additional observations from a re-analysis of the deposited data

Results flagged for a closer look

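*Cd101* was set apart because CD103 went with opposite directions of its signal in the CD11b+ and the CD11b- DCs. For CD103+ minus CD103- cells the difference was 1.25 among CD11b+ DCs and -0.64 among CD11b- DCs, with every array of one group on the same side of every array of the other in either pair. Of the genes most like it, *Cd209c* (1.26 and -0.56), *Ccdc180* (0.3 and -0.44) and *Ankrd44* (0.22 and -0.25) turned in the same way. Whether the 2 differences of a gene differ from each other was not tested, because these genes were chosen with the DC levels in view. For *Cd101* the opposite signs follow from the order for which it was chosen, and likeness to *Cd101* favours genes that share it. Of all genes 0.256% had that order with no overlap, and the share turning this way in any order was not counted. The CD11b- subsets also differed in *Itgam*, by -1.71 for CD103+ minus CD103- cells with no overlap of arrays, against 0.03 among CD11b+ DCs. In that pair CD103 and the level of CD11b RNA cannot be told apart. The *Cd101* values of CD103+CD11b- DCs are not shown to lie above background. Those of CD103-CD11b- DCs, 5.08 to 5.41, lie near the median of all genes on an array, 5.0 to 5.14.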

How the results depend on the processing

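The *Cd101* levels moved by less than the spread between replicates under every alternative tried. Over 27 alternatives the difference of *Cd101* in CD64+ mϕ ran from -4.63 to -4.44 against CD103+CD11b+ DCs, from -3.39 to -3.22 against CD103-CD11b+ DCs and from -0.68 to -0.51 against CD103-CD11b- DCs. Against CD103+CD11b- DCs it ran from -0.04 to 0.13, and it turned to -0.01 with re-centred arrays. Leaving out single arrays gave -4.63 to -4.44, -3.39 to -3.25, -0.68 to -0.51 and -0.04 to 0.13 in these 4 comparisons.

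The 52 genes of the EWI, tetraspanin, signalling and inhibitory receptor lists were counted together. Between the CD11b+ subsets 2 were higher and 0 lower, where 0.231% of all genes were higher and 0.306% lower. At an unadjusted p under 0.05 there were 24 of the 52, with no share over all genes beside this count. With a difference above 1 log2 unit as well, which 146 of all 19938 genes had, 2 of the 52 were higher and 1 lower. The higher genes became 1 with array weights and 1 with all 15 arrays in the fit. They became 0 with treat and by the methods' t-test. Chosen after the values were seen, a fit of only the arrays of both CD11b+ subsets left 1, and one without the arrays richest in acinar RNA left 0. At an adjusted p under 0.05, 1 was lower. Leaving out single arrays gave 1 to 2 higher and 0 to 1 lower. With treat, 1 (main value 3) was lower in CD103-CD11b+ than in CD103+CD11b- DCs. In CD64+ mϕ treat left 7 higher (11) against CD103+CD11b+ DCs, 2 lower (6) against CD103-CD11b+ DCs, 9 higher (18) and 2 lower (4) against CD103-CD11b- DCs and 2 lower (5) against CD103+CD11b- DCs. The methods' t-test left 10 higher (17) and 1 lower (3) in CD103+CD11b+ than in CD103+CD11b- DCs, and 5 higher (17) and 1 lower (3) in CD103-CD11b+ than in CD103+CD11b- DCs. In CD64+ mϕ it left 3 higher and 1 lower (11 and 7) against CD103+CD11b+ DCs, 1 and 1 (10 and 6) against CD103-CD11b+ DCs, 1 and 0 (18 and 4) against CD103-CD11b- DCs and 11 and 3 (20 and 5) against CD103+CD11b- DCs. At an unadjusted p under 0.05 and a difference above 1 log2 unit, the t-test gave 18 higher and 3 lower against CD103-CD11b- DCs.

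Over all genes 107 passed between the CD11b+ subsets, 9 with treat, 0 by the t-test and 10 without the acinar-rich arrays. By the t-test 131 had an unadjusted p under 0.05 and a difference above 1 log2 unit. Leaving out CD103-CD11b+ replicate 3 gave 59, and leaving out CD103+CD11b+ replicate 1 gave 66. Against CD103+CD11b- DCs, treat and the t-test left 203 and 164 of 653 genes for CD103+CD11b+ DCs and 228 and 90 of 662 for CD103-CD11b+ DCs. For CD64+ mϕ they left 465 and 270 of 1132 against CD103+CD11b+, 351 and 70 of 1033 against CD103-CD11b+, 451 and 83 of 1256 against CD103-CD11b- and 616 and 421 of 1401 against CD103+CD11b- DCs. Of the 10 genes most like *Cd101*, 0 stayed by Spearman's rho, 3 by root mean square distance and 4 over the 12 DC arrays, and 7 whichever replicate number was left out.

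Same-numbered arrays share only a number in the labels: 18 of 30 pairs had deviations correlated above 0.1 (mean 0.12, against -0.06 for other pairs). With a replicate block *Cd101* differed by -4.55, -3.3, -0.59 and 0.05 in the 4 mϕ comparisons and the count between the CD11b+ subsets was 129.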

Other observations

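Beside *Cd101*, 21 genes had the DC subsets in its order with every mϕ array below both CD11b+ subsets, and they are named here after their values were seen. *Il1r2*, a decoy receptor for IL-1, had a mean log2 signal of 10.16 in CD64+ mϕ, 12.09 in CD103+CD11b+, 11.62 in CD103-CD11b+, 10.6 in CD103-CD11b- DCs, with 8.2 for CD103+CD11b- DCs. *Fgfr1*, a fibroblast growth factor receptor, was at 5.09, 8.61, 8.04, 7.02 and 6.3 in these populations, and *Pygl*, which breaks down glycogen, at 6.09, 9.01, 8.11, 7.44 and 5.73. *Malt1*, a protease of NF-κB signalling, was at 7.57, 9.79, 9.38, 8.53 and 7.5. *Tgm2*, a transglutaminase, was at 9.28, 10.22, 10.09, 8.76 and 6.98. Their steps between the CD11b+ subsets, unlike those of *Cd101* and *Cd209c*, stayed under 1 log2 unit. The list also held the inhibitory receptor gene *Cd300a* and the transferrin receptor gene *Tfrc*.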
